A study of Mus musculus with 2 samples.

Results

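The genes described here encode 10 proteins that neutrophils store in their granules, measured in livers of B6NCrl mouse embryos at embryonic day 16.5. Members were taken from a fixed list of symbols and found by gene ID in both the gene tables and the transcript tables. All 10 were found, of 43346 Ensembl genes in the tables, with 28 annotated transcripts. Mpo, Elane, Prtn3 and Ctsg form the primary granule group, and Ltf, Camp, Ngp, Lcn2, Mmp8 and Mmp9 form the later group. The data are 2 total RNA libraries of 1 group, biological replicates 1 and 2, each from livers pooled over male and female embryos. Replicate 2 came from 41 embryos, and no number is given for replicate 1. The labels name no treatment or engineered allele, and both libraries carry 1 donor identifier, so the spread between them may be partly technical. Each library was made from 10 ng of RNA longer than 200 nt.

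Neutrophils make their granule proteins in waves as they mature. Primary (azurophil) granules form at the promyelocyte stage and hold peroxidase and serine proteases. Specific granules form next, in myelocytes, and hold antimicrobial and iron- or siderophore-binding proteins, and gelatinase granules form last. The fetal liver is a site of blood formation that holds maturing granulocytes beside hepatocytes and erythroid cells. In bulk tissue, fewer cells of a type and less RNA per cell cannot be told apart.

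Expected counts (estimated reads per gene) summed to 44477766 in replicate 1 and 48820712 in replicate 2. TPM gives a gene's abundance per length, relative to all transcripts of its library, and levels below are TPM. Markers of the labelled tissue were present. Each library held all 8 listed hepatocyte genes at no less than 1 TPM, with medians of 3708 and 4041 TPM, and all 8 erythroid genes, with medians of 416 and 406 TPM. The spike-in RNA took 2.50% of expected counts in replicate 1 and 3.19% in replicate 2.

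All 10 granule genes were expressed in both libraries, and Ngp, Mpo and Camp were the most abundant. Levels ranged from 9.63 ± 2.50 TPM (mean ± SD, n = 2) for Mmp9 to 590 ± 108 TPM for Ngp. Rescaling TPM over nuclear genes without globins raises every remaining gene by 1 factor per library. On that scale Mmp9 stood at 16.4 TPM and Ngp at 1004 TPM. The 6 later genes summed to more than the 4 primary genes in each library, in replicate 1 only with Ngp included. Between the libraries, the primary genes were level or lower in replicate 2 and the later genes were higher.

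Among the primary genes, Mpo was the highest. It encodes myeloperoxidase, the haem enzyme that makes hypochlorous acid, and stood at 371.77 TPM in replicate 1 and 371.82 TPM in replicate 2, on 30093 and 31936 expected counts. The gene was above 98.1% of the 11201 protein-coding genes that reached 1 TPM in each library. Elane, which encodes the serine protease neutrophil elastase, stood at 194.78 and 189.16 TPM. Prtn3, which encodes the related protease proteinase 3, stood at 93.39 and 84.63 TPM. Ctsg, which encodes cathepsin G, a further protease of the same granule, stood at 35.30 and 29.17 TPM. The order Mpo, Elane, Prtn3, Ctsg was the same in both libraries and the ranges of neighbours did not overlap. Mpo was 1.94 ± 0.0403 times Elane (SD, n = 2), Elane was 2.16 ± 0.106 times Prtn3, and Prtn3 was 2.77 ± 0.181 times Ctsg. Mpo held 54.3% ± 1.15 of the primary genes' TPM.

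The later genes spanned a wider range. Ngp, which encodes neutrophilic granule protein, a relative of the cathelicidins, stood at 513.60 TPM in replicate 1 and 665.72 TPM in replicate 2, above 99.0% of expressed protein-coding genes. Camp, which encodes the cathelicidin antimicrobial peptide precursor, stood at 350.37 and 389.89 TPM. Lcn2, which encodes the siderophore-binding lipocalin 2, stood at 186.64 and 237.81 TPM. In each of these genes replicate 2 was the higher library. Ltf, which encodes the iron-binding protein lactoferrin, stood at 122.89 and 153.02 TPM. The metalloproteinase genes were the lowest of the group. Mmp8, the neutrophil collagenase, stood at 13.77 and 17.21 TPM, and Mmp9, gelatinase B and the marker of the last granule type, stood at 7.86 and 11.39 TPM. Those 2 rest on 895 to 1843 expected counts per library. Ngp was 61.9 ± 4.88 times Mmp9 (SD, n = 2) and 4.26 ± 0.121 times Ltf.

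Across both stages the levels interleaved. From the highest mean the order was Ngp, Mpo, Camp, Lcn2, Elane, Ltf, Prtn3, Ctsg, Mmp8 and Mmp9. Mpo and Camp did not differ beyond their spread, since the range of Camp over the libraries holds that of Mpo, and Lcn2 and Elane overlapped likewise. The ranges of the other 7 neighbouring pairs did not overlap.

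**Figure D1:**
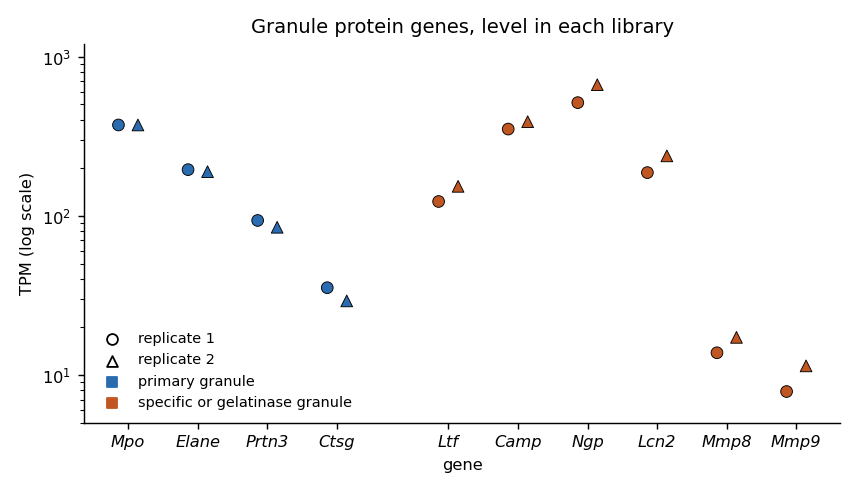
Level of each granule gene in TPM (log scale), with circles for replicate 1 and triangles for replicate 2, primary granule genes in blue and later genes in orange. Later genes are higher in replicate 2 in every case, from Mmp9 at 7.86 and 11.39 TPM to Ngp at 513.60 and 665.72 TPM, while Mpo is level at 371.77 and 371.82 TPM.

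Compared as groups, the primary genes summed to 695.24 TPM in replicate 1 and 674.78 TPM in replicate 2, and the later genes to 1195 and 1475 TPM. The ratio of primary to later sums was 0.582 in replicate 1 and 0.457 in replicate 2, a mean of 0.520 ± 0.0879 (SD, n = 2). Medians were closer, at 144 and 137 TPM for the primary and 155 and 195 TPM for the later genes, a ratio of 0.816 ± 0.163. Single genes carried much of these sums. Without Ngp the ratio of sums averaged 0.927, with the primary sum higher in replicate 1 and lower in replicate 2. Without Mpo, a primary gene, the ratio could only fall, and it was 0.238. Without Lcn2 the ratio of medians averaged 1.03, with the primary median higher in replicate 1 and lower in replicate 2. The groups hold only 4 and 6 genes, which are not replicates of a stage, and no test was made of the difference in level.

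The libraries differed along the line between the stages. Each difference is a log2 ratio of TPM + 1 in which replicate 2 is divided by replicate 1. The median of 12017 genes, those averaging at least 100 expected counts, was then set to 0. This sets 1 library against 1 and so compares these libraries only, with no p-value. The primary genes stood at -0.02 for Mpo, -0.06 for Elane, -0.16 for Prtn3 and -0.29 for Ctsg. The later genes stood at 0.14 for Camp, 0.28 for Mmp8, 0.30 for Ltf, 0.33 for Lcn2, 0.36 for Ngp and 0.47 for Mmp9. All 4 primary genes were below 0 and all 6 later genes above it, so the groups did not overlap. Among all genes tested, 50.0% were above 0. Mpo and Elane lay between the quartiles of all genes, -0.11 and 0.12. The medians of the primary and later groups were -0.11 and 0.31, a difference of 0.42, or 1.34-fold.

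Of the 10 genes, 3 (Ngp, Lcn2 and Mmp9) were called, meaning that their ratio was at least 0.32 in size, all higher in replicate 2. Among all 12017 genes, 4.92% were called higher and 2.26% lower, and no member was called lower. With deposited TPM intervals that did not overlap between libraries as the criterion, all 6 later genes were higher, against 14.3% of all genes. Prtn3 and Ctsg were lower by the same criterion, against 11.1% of all genes. Mpo and Elane had intervals that overlapped. The level of those intervals is not stated. By counting error alone, the 95% interval (exact binomial, of the log2 ratio without a pseudocount) of Ctsg was -0.41 to -0.18 and that of Mmp9 was 0.39 to 0.64. The interval of Mpo, from -0.04 to 0.00, is the only one of the 10 that reached 0. These intervals leave out variation between pools. The share of all genes with a counting interval clear of 0 was not computed, so that count is not shown to be particular to the members. Scaled to the spike-ins, the median of all genes moved to -0.35, and 2 of the 6 later genes remained above 0. Relative to that median all 6 were higher and all 4 primary genes lower. This scaling shifts all genes alike, so it could not change positions relative to that median. Under every other scaling tried, the 6 later genes were above 0 and the 4 primary genes below.

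**Figure D2:**
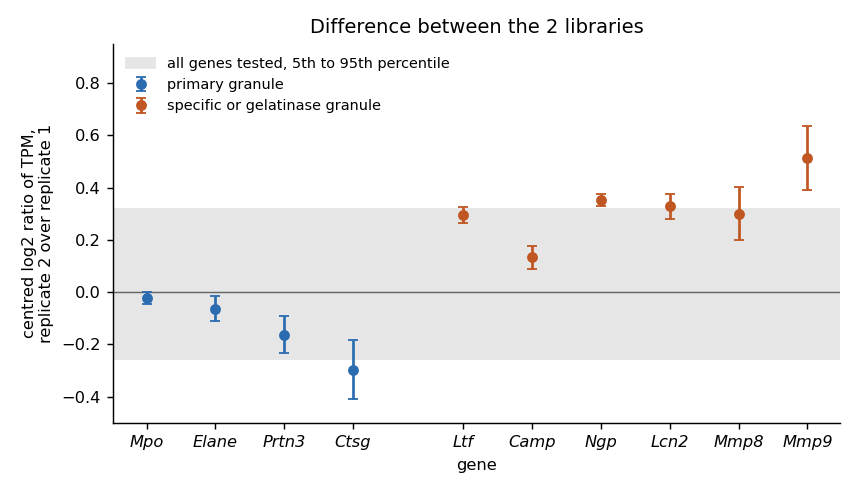
Centred log2 ratio of TPM, replicate 2 over replicate 1, for each granule gene, with 95% counting intervals; the grey band is the 5th to 95th percentile of all 12017 genes tested, from -0.26 to 0.32 with a pseudocount of 1. Primary genes (blue) lie at or below 0 and later genes (orange) above 0, with Mmp9 highest and Ctsg lowest.

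Other genes of the granules were placed by the same measure. Of 10 further genes of primary granules, lysosomes and protease processing, 9 had enough counts, and 2 were higher and 7 lower in replicate 2, with a median ratio of -0.06 and none called. The lysosomal proteases Ctsd, at 364 ± 6.72 TPM, and Ctsb, at 324 ± 10.0 TPM, and the lysosomal membrane protein Lamp1, at 163 ± 8.56 TPM, led that list and are made by many cell types. Bpi, a bactericidal protein of human primary granules, was lowest, with 1 and 0 expected counts. Of 15 further genes of specific and gelatinase granules, 14 had enough counts, and 11 were higher and 2 lower, with a median of 0.14. Those called were Chil3, at 0.43, and Ceacam1, at 0.37. The oxidase subunit gene Cyba stood at 163 ± 1.03 TPM, the peptidoglycan-binding Pglyrp1 at 71.6 ± 6.19, the ficolin Fcnb at 58.2 ± 0.912 and the membrane metalloproteinase Mmp25, lowest, at 0.45 ± 0.064. Cyba, at -0.03, and Fcnb, at -0.05, were the 2 that were lower, and the other gene, Slc11a1, was at the median of all genes.

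Genes of secretory vesicles, membrane and other products of mature neutrophils were low in level. The median of the 12 listed was 3.19 TPM in replicate 1 and 4.27 TPM in replicate 2, and 8 of the 10 with enough counts were higher in replicate 2, with a median ratio of 0.22. The formyl peptide receptor Fpr2, at 0.44, and the chemokine receptor Cxcr2, at 0.35, were called. The Fc receptor Fcgr3 led at 25.9 ± 0.877 TPM, followed by the phosphatase Alpl, at 10.48 and 13.51 TPM, and the secreted cytokine gene Il1b was lowest at 0.23 ± 0.20. The list named for cytosolic neutrophil proteins, which also holds the granule protein lysozyme, was the most abundant of the neutrophil lists. All 5 of its genes were higher in replicate 2, with a median ratio of 0.05 and none called. The calcium-binding S100a8 stood at 3145 ± 54.0 TPM with a ratio of 0.02, S100a9 at 1553 ± 31.7 with 0.02, the lysozyme Lyz2 at 627 ± 29.6 with 0.08, the cytoskeletal Coro1a at 89.8 ± 2.84 with 0.05 and the annexin Anxa1 at 81.2 ± 9.91 with 0.23.

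Progenitor genes had a median ratio of -0.05, with 3 of 8 higher and none called. The replication gene Mcm5 stood at 93.7 ± 3.51 TPM, Fcnb (also in the granule list above) followed, Ms4a3, expressed in granulocyte and monocyte progenitors, stood at 27.6 ± 2.26 with a ratio of -0.18, and Flt3 at 1.30 ± 0.0990. Genes of granule sorting and release had a median of -0.07, with 2 of 10 higher and none called. The vesicle protein Vamp8 led at 194 ± 12.9 TPM, then the fusion regulator Stxbp2 at 43.4 ± 1.77 and the adaptor Gga2 at 29.2 ± 1.12, and the lysosome trafficking gene Lyst was lowest at 1.56 ± 0.113.

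**Figure D3:**
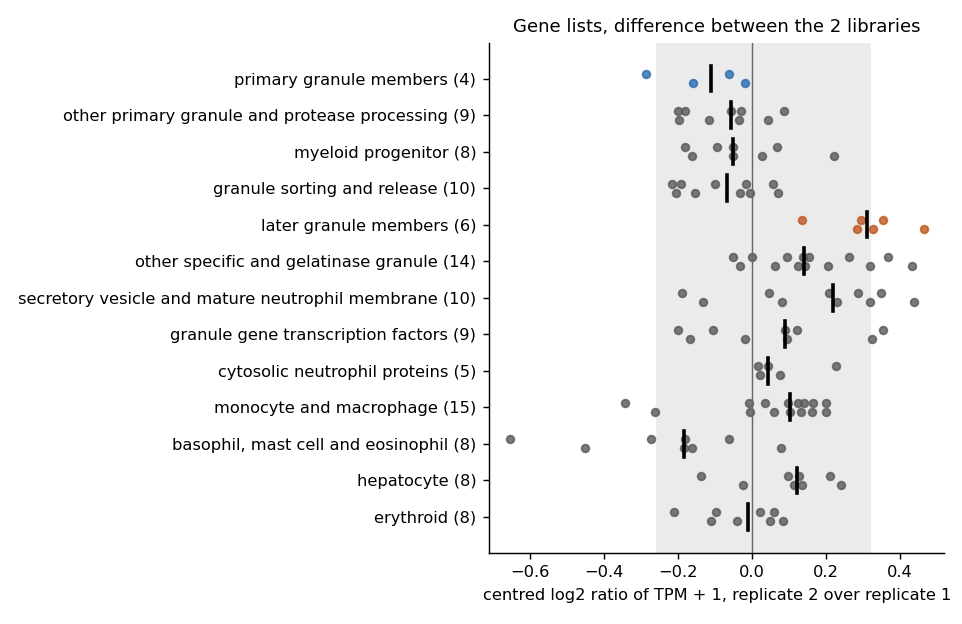
Centred log2 ratio of TPM + 1, replicate 2 over replicate 1, for the genes of each list that averaged at least 100 expected counts (number in brackets); each point is a gene, the black bar is the list's median and the grey band is the 5th to 95th percentile of all genes tested. The later granule genes have a median of 0.31 and the secretory vesicle and mature neutrophil list 0.22, while the primary granule genes have -0.11 and the basophil, mast cell and eosinophil genes -0.18.

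Transcription factor genes that act on granule genes stood at 0.47 to 15.3 TPM. Spi1, which encodes PU.1, the factor of myeloid lineages, was highest at 15.3 ± 0.905. The C/EBP genes followed, with Cebpe, required for specific granules, at 9.73 ± 0.742, Cebpd at 7.09 ± 0.431 and Cebpa, which acts in early granulocytes, at 6.38 ± 1.24, while Cebpb was lowest at 0.47 ± 0.085. Myb, a factor of progenitors, stood at 6.82 ± 0.566, the RUNX partner Cbfb at 6.17 ± 0.629, Runx1 at 3.73 ± 0.198, Klf5 at 2.15 ± 0.573 and the repressor Gfi1 at 1.26 in both libraries. Of the 9 with enough counts 5 were higher in replicate 2, with a median of 0.09. Cebpa, at 0.33, and Klf5, at 0.36, were called. Myb stood at -0.17, Cbfb at -0.20, Runx1 at -0.10 and Cebpe at 0.12.

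Inhibitors of granule proteases spanned a wide range, from 1.80 to 1212 TPM. Their median was 317 TPM in replicate 1 and 352 TPM in replicate 2. The antitrypsin genes Serpina1b, at 1212 ± 73.5, and Serpina1a, at 1002 ± 108 TPM, products of hepatocytes, led with the cysteine protease inhibitor Stfa1 at 958 ± 25.7. The metalloproteinase inhibitor Timp1 was lowest at 1.80 ± 0.467, and Serpinb1a, which inhibits neutrophil serine proteases, stood at 32.0 TPM, below Elane and Prtn3. Counts of Serpina1a, Serpina1b and Stfa1 were not whole in the tables, so reads were divided between near-identical copies and each value is uncertain. Of 11 inhibitors with enough counts 9 were higher in replicate 2, with a median of 0.11 and none called.

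Among the lists of markers of other cells, the basophil, mast cell and eosinophil list had the median ratio furthest from 0 and the erythroid list the nearest. Of 15 monocyte and macrophage genes 11 were higher in replicate 2, with a median of 0.10, none called higher and 1, the chemokine receptor Ccr2 at -0.34, called lower, and the list summed to 523 and 568 TPM. C1qb led at 119 ± 6.94 TPM, then Cd5l at 73.6 ± 2.04 and C1qa at 63.1 ± 4.48, and Fcgr1 was lowest at 2.81 ± 0.0212. Of 8 basophil, mast cell and eosinophil genes with enough counts 1 was higher and 7 were lower, with a median of -0.18. Mcpt8, at -0.65, and Prss34, at -0.45, both basophil or mast cell proteases, were called lower, and the list of 11 summed to 126 and 108 TPM. The eosinophil granule gene Prg2 led at 68.0 ± 8.55 TPM, then Ear2 at 23.0 ± 0.509 and Hdc at 6.41 ± 0.354, and Il5ra was lowest at 0.040 ± 0.042. No listed marker of either kind was at 0 in both libraries. Hepatocyte genes had a median ratio of 0.12, with 6 of 8 higher, led by Trf, Afp and Alb and lowest in Hnf4a at 17.5 ± 1.34 TPM. Erythroid genes had a median of -0.01, with 4 of 8 higher, led by Alas2 and Slc4a1 and lowest in Gata1 at 91.2 ± 3.10 TPM. Cells other than neutrophils can express some members, Lcn2 and Mmp9 among them, and the part of cell mixture in these differences was not tested.

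Several members lie close to each other or to related genes. Positions are of assembly GRCm38 (mm10), GENCODE release M21. Prtn3 (chr10:79874476-79883174) and Elane (chr10:79886247-79888215) are on the plus strand, 3072 bases apart. The next gene, Cfd, which encodes the serine protease complement factor D, begins 2637 bases beyond Elane and was without counts, and the limit set by 3 counts is 0.086 TPM in replicate 1 and 0.080 TPM in replicate 2. Mpo lies at chr11:87793581-87804413. The gene of the related lactoperoxidase, Lpo, lies 2014 bases away on the other strand and had 1 and 0 counts.

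Ctsg (chr14:56099881-56102574, minus strand) belongs to a cluster of granzyme and mast cell protease genes. Of 14 such neighbours 1 reached 1 TPM in both libraries, and 6 were without counts. Mcpt8, a basophil protease and the highest, stood at 6.38 TPM in replicate 1 and 3.75 TPM in replicate 2, a ratio of -0.65 on 203 and 129 expected counts. Next were Gzmb at 0.71 ± 0.035 and Cma1 at 0.58 ± 0.0071 TPM, and Mcpt9 was at 0. Ctsg was above every one of these in each library.

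Camp (chr9:109847379-109849617, minus strand), Ngp (chr9:110419747-110423012) and Ltf (chr9:111019271-111042767) lie within 1.20 Mb of chromosome 9. Between their outer ends are 37 other genes, of which 16 had enough counts. Their median ratio was 0.01, from -0.18 to 0.47, and 9 of 16 were higher in replicate 2. The 3 called, all higher, were Nbeal2 at 0.47, Tmie at 0.43 and Rtp3 at 0.34. The genes beside Ngp stood at 0.07 for Klhl18 and -0.05 for Ptpn23, and Nme6, beside Camp, stood at -0.14. Mmp8 (chr9:7558456-7568485) lies elsewhere on that chromosome, beside Mmp27, which had 15 and 7 expected counts. Lcn2 (chr2:32384633-32388252, minus strand) and Mmp9 (chr2:164940780-164955850) are on chromosome 2, and the gene after Mmp9, Slc12a5, had 17 and 14 counts.

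In the metalloproteinase family, only Mmp14 was above Mmp8 and Mmp9 among the genes listed. Of 15 other members listed 5 reached 1 TPM in both libraries and 4 had no counts. The membrane-bound Mmp14 stood at 20.6 ± 1.57 TPM. Mmp19 stood at 7.83 ± 0.0141 and Mmp2, the other gelatinase, at 6.08 ± 0.813, while Mmp7 was at 0. Of the 6 others with enough counts 5 were higher in replicate 2, with a median ratio of 0.11 and a highest of 0.22, below those of Mmp8 and Mmp9.

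Sequences before the start sites are shown as a description of the members. Any link between them and the difference between the libraries was not tested. RefSeq windows (GRCm38.p6) were found for 9 of the 10 members. In the 250 bases before the RefSeq start, 4 short motifs were searched on both strands, allowing overlaps: a C/EBP core (TTNNGNAA), a PU.1 core (GAGGAA), a RUNX core (TGTGGT) and the TATA box (TATAAA). The C/EBP letters stood in 4 of the 5 later windows (all but Camp) and 0 of the 4 primary windows, against 36.8% of 32817 windows of the same length. The PU.1 letters stood in 4 of 4 primary and 3 of 5 later windows, against 23.3% of all. Ctsg alone held the RUNX letters (14.04% of all windows) and the TATA letters (12.4%). Below are 3 windows of each stage, from their far end up to the first annotated exon, written 5′ to 3′ on the gene's strand with motif matches in capitals. The windows of Ctsg, of Camp, which held none of the 4 motifs, and of Lcn2 are not printed. The printed set therefore differs more cleanly by stage than the whole. A match is a run of letters, not a bound site.
Mpo, chr11:87793534-87793580: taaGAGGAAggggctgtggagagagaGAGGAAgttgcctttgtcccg
Elane, chr10:79886062-79886246: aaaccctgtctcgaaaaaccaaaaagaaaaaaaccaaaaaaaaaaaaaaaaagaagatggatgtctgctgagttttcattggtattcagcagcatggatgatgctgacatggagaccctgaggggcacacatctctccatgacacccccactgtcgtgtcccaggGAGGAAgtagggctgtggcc
Prtn3, chr10:79879417-79879613: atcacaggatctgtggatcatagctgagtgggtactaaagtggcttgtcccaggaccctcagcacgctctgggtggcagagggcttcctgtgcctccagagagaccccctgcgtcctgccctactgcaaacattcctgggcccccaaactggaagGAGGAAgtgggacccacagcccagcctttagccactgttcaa
Ltf, chr9:111019042-111019270: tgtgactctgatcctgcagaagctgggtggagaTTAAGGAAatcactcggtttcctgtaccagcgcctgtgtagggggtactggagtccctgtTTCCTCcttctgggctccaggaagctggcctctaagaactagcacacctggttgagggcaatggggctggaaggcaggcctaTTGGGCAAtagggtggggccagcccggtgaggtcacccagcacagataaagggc
Ngp, chr9:110419558-110419746: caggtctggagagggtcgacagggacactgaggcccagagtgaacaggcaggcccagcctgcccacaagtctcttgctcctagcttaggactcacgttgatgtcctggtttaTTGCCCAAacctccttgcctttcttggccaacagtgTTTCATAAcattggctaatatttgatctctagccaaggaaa
Mmp8, chr9:7558179-7558428: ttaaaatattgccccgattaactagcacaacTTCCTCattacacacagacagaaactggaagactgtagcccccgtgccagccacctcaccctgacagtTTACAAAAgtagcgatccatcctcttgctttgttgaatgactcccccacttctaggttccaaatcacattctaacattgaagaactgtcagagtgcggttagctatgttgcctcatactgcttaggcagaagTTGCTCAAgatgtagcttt

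Both printed stretches of the adjacent Elane and Prtn3 hold 1 PU.1 core, and the short Mpo stretch holds 2. The stretches of Ltf, Ngp and Mmp8 each hold 2 C/EBP cores, and Ngp holds no PU.1 core. Annotated starts differ for most members. The leading transcript of Mpo starts 425 bases after the RefSeq start, and of the 250 bases of the Camp window 89 lie before any annotated exon. The whole Lcn2 window overlaps annotated exons, yet its matches are in the counts above. Windows may not mark the starts used in this tissue. No factor binding was measured here.

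Transcript tables divided the members into single- and several-transcript genes. Elane, Ctsg, Ltf, Camp, Ngp and Mmp8 had 1 transcript each in the annotation behind the tables, so that transcript holds all of the gene's TPM. For Ltf that annotation is sparse, since release M21 lists 12 transcripts. Mpo, Prtn3 and Lcn2 had 6 each and Mmp9 had 4.

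Mpo was led by Mpo-203, a protein-coding transcript of 2409 nt, at 273.30 TPM in replicate 1 and 265.46 TPM in replicate 2, or 72.5% ± 1.501 of the gene (SD, n = 2). The 640-nt Mpo-205 held 22.5% ± 1.47 and Mpo-201, the longest at 2750 nt, 3.95% ± 0.102. Mpo-205 had 1813 and 2149 expected counts, so its share rests largely on division by its short length. Of the gene's expected counts, Mpo-203 held 88.3% in replicate 1 and 87.3% in replicate 2.

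Prtn3 differed from the other members in its makeup. The coding Prtn3-201 held 61.0% ± 0.599 of the gene, at 56.58 and 51.99 TPM. Transcripts annotated as retaining an intron held 39.1% in replicate 1 and 37.4% in replicate 2, mostly Prtn3-204, at 34.03 and 29.24 TPM. Among 2646 protein-coding genes at 10 TPM or more with such a transcript annotated, the median share was 5.13%, and Prtn3 stood above 92.3% of them. That comparison was chosen after the value of Prtn3 was seen. Total RNA libraries also hold unspliced RNA, and how much of the signal it gave was not tested.

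The other members with several transcripts were more uniform. Lcn2-201 held 98.3% ± 0.291 of Lcn2. Mmp9-201 held 82.6% ± 0.917 of Mmp9, and the 1125-nt noncoding Mmp9-204 held 16.9% ± 1.66, on 61.3 and 83.6 expected counts. In all 4 genes the leading transcript was the same in both libraries and was annotated as protein coding.

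**Figure D4:**
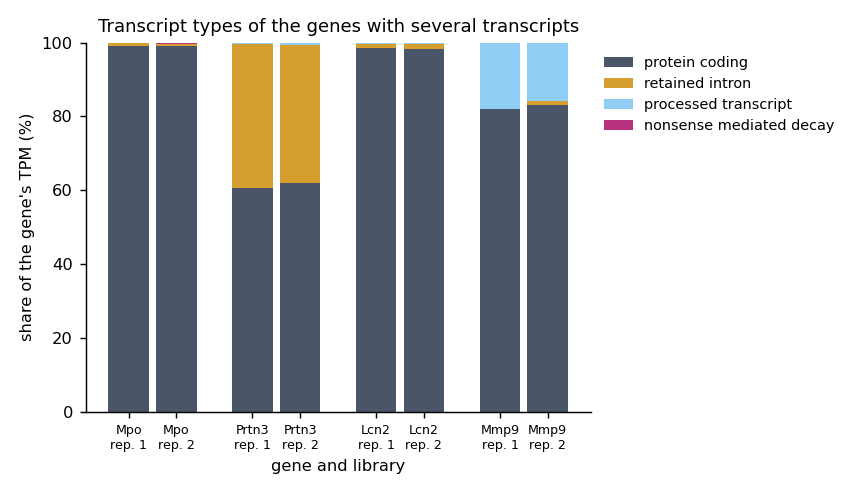
Share of each gene's TPM held by transcripts of each annotated type, stacked to 100%, for the 4 members with several transcripts in replicates 1 and 2. Retained-intron transcripts take 39.1% and 37.4% of Prtn3, and processed transcripts 18.1% and 15.7% of Mmp9, while Mpo and Lcn2 are almost wholly protein coding by type.

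Overlaps bear on the 2 members, Mpo and Prtn3, whose counts were not whole in at least 1 library. Mpo overlaps the antisense gene Gm11505, which had 67.8 and 56.1 expected counts, and Prtn3 overlaps Plppr3 on the other strand, which had 445 and 497. Of the Prtn3 transcripts only Prtn3-202, with 8.46 and 14.98 expected counts, reaches Plppr3, since the others start beyond its end. No strand-specific step is named in the labels. In replicate 1 the expected counts of Mpo, 30093.2, and Gm11505, 67.8, add up to a whole number to the digits given. Those of Prtn3 and Plppr3 do not, and whether reads of such pairs were told apart was not tested. Counts of the other 8 members were within 0.01 of a whole number in each library.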

How the data were processed

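Total RNA of 2 pooled E16.5 liver samples was analysed. The authors deposited, per library, 69691 gene rows and 129984 transcript rows, on mm10 with GENCODE M4, per the text deposited beside the tables. The expected counts deposited by the authors are estimates in which shared reads are divided, per the file headers. The TPM deposited by the authors is scaled over all rows, spike-ins included, and the deposited FPKM was used only as an alternative. The aligner and its version are not given in the sources used here. Symbols and positions came from GENCODE M21, matched by ID without version (42462 of 43346 genes).

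Levels are mean and SD over the 2 libraries. There is 1 group, so no test was possible. The centred log2 ratio used a pseudocount of 1 and genes averaging at least 100 expected counts. It was tested on simulated data only with a far smaller pseudocount, planted changes of 1.5-fold and counting error alone. Counting intervals and limits of 3 counts cover counting error only, since reads carry no molecular identifiers. Motifs, and the comparison of retained-intron shares, were chosen after the ratios were seen. The members and lists were chosen with earlier results of these data known. Genes named were all members, the 3 highest and the lowest by mean TPM of each list (all transcription factors, and all of lists up to 5) and genes within 20 kb of a member, of which some are printed; 2 genes the rule names are not reported here. Chil3, Ceacam1, Slc11a1, Fpr2, Cxcr2, Ccr2, Prss34, Nbeal2, Tmie and Rtp3 were named after their values were seen, as was Serpinb1a. With 2 libraries no gene was named for a like pattern. Alternatives were the posterior mean TPM, TPM over nuclear genes without globins, FPKM, counts, other pseudocounts and filters, each replicate alone, members left out, and scaling by TMM (edgeR 4.0.16), DESeq2 1.42.0 or spike-ins. R 4.3.3, python 3.11.15, pandas 2.3.3 and scipy 1.17.1 were used.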

Additional observations from a re-analysis of the deposited data

How the results depend on the processing

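The ratio of primary to later sums, 0.520, was 0.697 with expected counts in place of TPM, 0.617 without Lcn2, 0.927 without Ngp and 0.238 without Mpo. These means over the libraries were below 1, but without Ngp the ratio was above 1 in replicate 1 and below it in replicate 2. Leaving out Mpo, a primary gene, could only lower the ratio. With all members, each replicate alone gave 0.457 to 0.582. The ratio of medians, 0.816, was 0.651 with expected counts and 1.03 without Lcn2. That last mean turns the direction, but the ratio without Lcn2 was above 1 in replicate 1 only. With all members, each replicate alone gave 0.701 to 0.931. Members called between libraries numbered 3 at a ratio of 0.32 and 0 at 1.5-fold. They numbered 2 with DESeq2 size factors and 4 with spike-ins. Those 4 were the primary genes, all lower, and no later gene was called. With spike-ins the median of all genes, -0.35, is itself larger in size than 0.32, so the 4 calls are not particular to the members. The share of all genes called was computed at the main setting only. With spike-ins, which lower all genes by a median of 0.35, the ratio of Lcn2 turned to -0.022, and those of Camp, at -0.22, Ltf, at -0.06, and Mmp8, at -0.05, turned as well. All 10 member ratios moved by over 0.1 with spike-ins, and 40 values under the other settings by less. TPM over nuclear genes without globins raises every remaining gene by 1 factor per library, and the level of Mpo went from 372 to 633 TPM. By expected counts the leading transcript held 87.8% of Mpo, 68.5% of Prtn3 and 93.5% of Mmp9, all higher than by TPM, and 98.3% of Lcn2. The difference between the stages' median ratios was 0.42 to 0.43 under all 6 settings, but TMM, DESeq2 and spike-ins shift all genes alike, so that difference could not change among them. No paired analysis was possible because the labels set 1 group. With 2 libraries the SD of a level is itself uncertain, as that of Mpo, 0.035 TPM, shows.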
